A study of Mus musculus with 6 samples.

Results

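The acute-phase secreted proteins described here are 8 mouse genes, the serum amyloid A genes Saa1, Saa2 and Saa3, haptoglobin (Hp), lactotransferrin (Ltf), lipopolysaccharide binding protein (Lbp) and the orosomucoids Orm1 and Orm2. They were taken by gene name from the 36842 genes of the deposited expression table, and each name matched 1 gene. Levels are given in FPKM, which divides fragments by transcript length and by the library total. Of the 8, Saa1, Saa3, Hp, Ltf and Lbp averaged 1 FPKM or more across the 6 libraries and entered the test with 12241 genes in all, while Saa2, Orm1 and Orm2 did not. Ltf, Hp and Lbp were lower in every library of cells that had received salidroside with cyclophosphamide than in every library of cells given cyclophosphamide alone, by 1.90-fold, 2.96-fold and 3.09-fold in mean FPKM. Groups were likewise lower without overlap for 10.0% of all genes tested. None of the differences in Ltf, Hp and Lbp passed the test across all genes.

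The acute-phase response is the change in secreted plasma proteins that follows infection or tissue injury. Interleukin-6, interleukin-1 and tumour necrosis factor act through STAT3, C/EBP and NF-κB factors to switch these genes on in hepatocytes, and several of them are also made outside the liver by epithelia, fat cells and leukocytes. Serum amyloid A proteins travel on lipoprotein particles and attract leukocytes, haptoglobin captures free haemoglobin, lactotransferrin binds iron in epithelial secretions and in neutrophil granules, and Lbp hands bacterial lipopolysaccharide to CD14 and the TLR4 receptor. Orosomucoids, also called alpha-1-acid glycoproteins, carry small molecules in plasma.

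RNA came from 6 libraries labelled as wild-type GC-2spd(ts), a mouse spermatocyte line immortalised with a viral large T antigen and a temperature-sensitive p53, with testis given as the tissue. Both groups had received 2 mM cyclophosphamide, an alkylating drug toxic to germ cells, for 24 h. The 3 Sal_CP libraries had received 100 µM salidroside, a phenylethanoid glycoside of Rhodiola, over the same 24 h, and the 3 CP libraries had not. Cells without cyclophosphamide are not analysed here, so the values cannot say whether cyclophosphamide itself altered these genes, and separate cultures are stated for no library, so the spread behind each p-value may be technical.

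The labelled cell type was compared with defining markers. All 12 spermatid markers passed the filter and summed to 46766 to 76885 FPKM in Sal_CP and 32418 to 53906 FPKM in CP, and the 12 spermatocyte and meiosis markers to 1214 to 1786 FPKM and 802 to 1238 FPKM. Within the latter the germ-cell glycolytic enzymes Pgk2 (564 to 1346 FPKM) and Ldhc (156 to 424) were abundant, while the synaptonemal complex gene Sycp3 lay between 1.39 and 3.75 FPKM and the meiotic recombinase Dmc1 between 0.0345 and 0.299. The spermatid markers, the most abundant of the sets, belong to a later germ-cell stage than the spermatocyte of the label. Also present were epididymal epithelium markers, led by Crisp1 at 1423 to 3521 FPKM, and macrophage markers, led by Lyz2 at 89.8 to 562 FPKM. Neither of these sets is a known product of spermatocytes. Sal_CP replicate 1 stood apart in its macrophage markers, which summed to 1125 FPKM against 187 to 613 in the other 5 libraries. FPKM of low genes with 1 transcript fell on regular steps. Read as single fragments, these steps correspond to 22.0 M fragments (M for mega) in Sal_CP replicate 1 and 16.5 to 18.3 M in the others, although 44.5 to 45.8% of the values up to 5 steps lay within 0.05 of a whole step.

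The levels of the 8 genes spread over several orders of magnitude. Per transcript length, Ltf was the most abundant by mean FPKM over the 6 libraries (88.2 FPKM, rank 401 of 12241 genes tested), followed by Saa3 (63.5, rank 518), Hp (6.90, rank 3433), Lbp (5.44, rank 4214) and Saa1 (1.98, rank 8739). Ltf and Saa3 overlapped in CP, where Saa3 lay above Ltf in replicate 1 and below it in replicates 2 and 3, and Hp and Lbp overlapped in both groups. Saa2, Orm1 and Orm2 averaged 0.126, 0.0492 and 0.0163 FPKM. Orm1 and Orm2, known mainly as liver products, were at the low end, and Ltf and Saa3, known from epithelia and leukocytes, at the high end. Hp, Lbp and Saa1, which the liver also makes, lay between, and an order by tissue of origin was not tested.

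**Figure D1:**
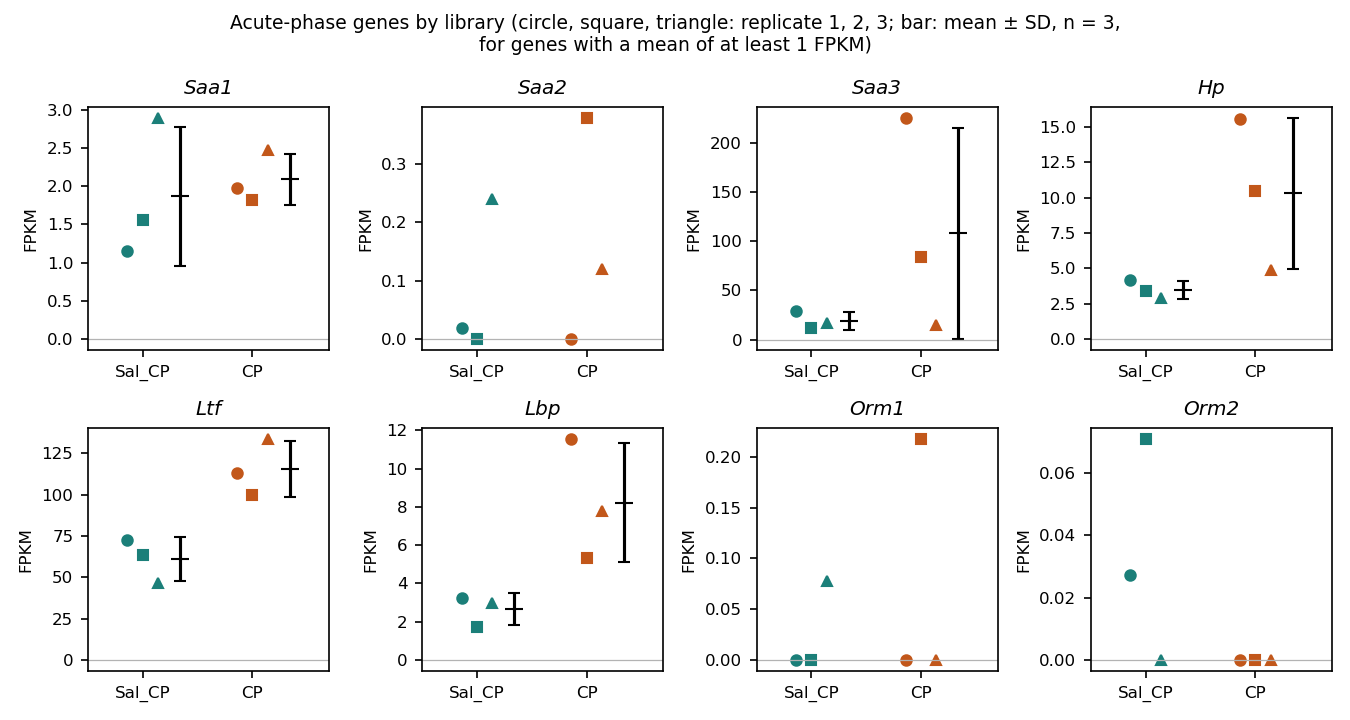
FPKM (vertical axes, linear, each gene on its own scale) of the 8 genes in the 3 Sal_CP and 3 CP libraries, with mean and SD for the 5 genes past the filter. The 2 groups do not overlap for Hp, Ltf and Lbp, and CP replicate 3 of Saa3 (14.6 FPKM) lies inside the Sal_CP range.

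Saa1, Saa2 and Saa3 lie with Saa4 in a cluster of 42.3 kb on chromosome 7 (46711998 to 46754313 in GRCm38, GENCODE M21 annotation). Saa3 (ENSMUSG00000040026) spans 46711998 to 46715700 and Saa1 (ENSMUSG00000074115) 46740497 to 46742980, both on the minus strand, and Saa2 (ENSMUSG00000057465) spans 46751790 to 46754313 on the plus strand. All 8 genes are protein-coding, and no other annotated gene overlaps any of them. The longest coding transcripts of Saa1 (609 bases) and Saa2 (652 bases) were 94.4% identical over 606 aligned bases. Those of Saa1 and Saa3 were 80.8% identical over 603. The Saa3 transcript has 2200 bases and gaps are not counted, so its value covers only part of that transcript. The promoter windows of the 3 genes, from 250 bases before to 50 after the start in the RefSeq table (GRCm38.p6), are shown because 3 neighbouring genes of 1 family differed so widely in level. Capitals mark matches to the C/EBP-type motif TTNNGNAA, which was searched on both strands.
Saa1, chr7:46742931-46743230, minus strand: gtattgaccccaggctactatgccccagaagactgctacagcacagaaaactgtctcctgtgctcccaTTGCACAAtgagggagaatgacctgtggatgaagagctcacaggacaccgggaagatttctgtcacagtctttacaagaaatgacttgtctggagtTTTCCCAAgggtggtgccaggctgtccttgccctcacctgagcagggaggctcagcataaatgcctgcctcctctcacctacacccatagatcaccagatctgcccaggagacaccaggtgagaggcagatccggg
Saa2, chr7:46751583-46751882, plus strand: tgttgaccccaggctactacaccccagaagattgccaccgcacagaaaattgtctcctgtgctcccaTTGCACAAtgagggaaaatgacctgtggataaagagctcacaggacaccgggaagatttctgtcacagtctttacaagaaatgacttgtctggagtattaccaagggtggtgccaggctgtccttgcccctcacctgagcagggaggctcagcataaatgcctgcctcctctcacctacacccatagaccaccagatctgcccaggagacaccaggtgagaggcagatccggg
Saa3, chr7:46715627-46715926, minus strand: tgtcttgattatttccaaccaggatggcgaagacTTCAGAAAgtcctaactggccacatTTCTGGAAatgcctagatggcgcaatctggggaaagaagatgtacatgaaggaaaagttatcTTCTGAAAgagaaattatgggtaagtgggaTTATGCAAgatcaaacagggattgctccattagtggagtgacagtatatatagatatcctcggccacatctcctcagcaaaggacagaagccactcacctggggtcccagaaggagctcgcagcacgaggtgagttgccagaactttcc

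The windows of Saa1 and Saa2 were 96.0% identical over 299 aligned bases, against 65.1% over 261 for Saa1 and Saa3. Gaps are not counted in these values. Ltf and Orm2, of different families, gave 66.0% over 256 in the same way, so 65.1% marks no particular likeness of Saa1 and Saa3. TTNNGNAA occurred at 2 positions in the Saa1 window, at 1 in that of Saa2 and at 4 in that of Saa3, and no matches overlapped. This motif is found in 40.7% of the 32851 promoter windows in the table, so its presence is common. The STAT-type motif TTCNNNGAA (8.30% of all windows) and the NF-κB consensus (8.46%) had 0 matches in the 5 member windows in the table, which are those of Saa1, Saa2, Saa3, Ltf and Orm2.

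Saa3, the serum amyloid A gene that mouse macrophages, fat cells and epithelia express, had the widest range of the 8 genes. It measured 29.3, 11.4 and 16.9 FPKM in Sal_CP replicates 1 to 3, and 225, 83.9 and 14.6 FPKM in CP replicates 1 to 3. CP replicates 1 and 2 stood above all Sal_CP libraries, and CP replicate 3 lay within their range. The CP libraries alone spanned 15.4-fold. The Saa3 means were 19.2 ± 9.16 FPKM with salidroside and 108 ± 107 without (SD, n = 3 each), a change of -1.82 (SE 0.75) in log2(FPKM + 1), the scale of every change below. Its unadjusted p was 0.0315 and its adjusted p 0.444 in limma. The 2-sided exact permutation p was 0.3, where 3 against 3 libraries allow none below 0.1. The size rests on single libraries, at -0.95 without CP replicate 1 and -2.87 without CP replicate 3.

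Saa1, a major circulating form, differed between groups by less than the spread within them. It measured 1.16, 1.56 and 2.89 FPKM in Sal_CP against 1.98, 1.83 and 2.47 FPKM in CP, so that the Sal_CP libraries enclosed all CP libraries. The change was -0.15 (SE 0.27, adjusted p 0.769 in limma), close to the median of -0.12 over all genes tested. At these depths the values correspond to 15.5 to 29.1 fragments per library. Saa2, the other circulating form, was listed at 0.018, 0 and 0.24 FPKM in Sal_CP against 0, 0.378 and 0.12 in CP, or at most 4.33 fragments. The groups overlapped, and a difference in Saa2 was not detectable at this depth. The transcripts of Saa1 and Saa2 share 0 identical stretches of 150 bases, the read length, but how reads were divided between them is not stated. Their sum was therefore compared too, and Saa1 plus Saa2 averaged 1.96 ± 1.04 FPKM with salidroside and 2.26 ± 0.31 without (exact permutation p = 0.7, 2-sided).

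Ltf (ENSMUSG00000032496, chromosome 9, 111019271 to 111042767, plus strand) encodes the iron-binding glycoprotein of milk, seminal plasma and other secretions. Its promoter window, shown as that of the most abundant member and with capitals for TTNNGNAA as above, held 2 matches.
Ltf, chr9:111019042-111019341, plus strand: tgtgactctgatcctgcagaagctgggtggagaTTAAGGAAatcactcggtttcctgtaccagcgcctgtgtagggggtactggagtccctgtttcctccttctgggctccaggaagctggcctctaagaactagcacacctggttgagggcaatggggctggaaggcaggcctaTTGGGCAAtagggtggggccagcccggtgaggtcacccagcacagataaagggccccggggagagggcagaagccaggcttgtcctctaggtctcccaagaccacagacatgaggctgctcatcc

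Ltf measured 72.7, 63.7 and 46.3 FPKM in Sal_CP against 113, 99.8 and 134 FPKM in CP. The lowest CP library stood 1.37-fold above the highest Sal_CP library, and each group kept within 1.57-fold. The means were 60.9 ± 13.4 and 115 ± 17.0 FPKM (SD, n = 3 each). The change of -0.93 (SE 0.32) had an unadjusted p of 0.0145 and, in limma, an adjusted p of 0.421. The exact permutation p was 0.1, the smallest that 3 against 3 allow.

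Hp (ENSMUSG00000031722, chromosome 8, 109575128 to 109579172, minus strand) encodes a protein that captures haemoglobin. Hp measured 4.17, 3.42 and 2.87 FPKM in Sal_CP against 15.6, 10.5 and 4.90 FPKM in CP. With 1 annotated transcript of 1345 bases, these levels correspond to 63.7 to 123.5 fragments per library in Sal_CP and 121 to 354 in CP. The groups did not overlap, but CP replicate 3 stood only 1.18-fold above Sal_CP replicate 1. The means were 3.49 ± 0.65 and 10.3 ± 5.33 FPKM (SD, n = 3 each), a change of -1.22 (SE 0.36, adjusted p 0.338 in limma, exact permutation p = 0.1). It was -0.89 without CP replicate 1 and -1.63 without CP replicate 3.

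Lbp (ENSMUSG00000016024, chromosome 2, 158306493 to 158332852, plus strand) measured 3.26, 1.72 and 3.00 FPKM in Sal_CP against 11.5, 5.33 and 7.80 FPKM in CP. It had the widest gap between groups, the lowest CP library standing 1.64-fold above the highest Sal_CP library, and the smallest p of the members, rank 71 of 12241 genes. The means were 2.66 ± 0.82 and 8.22 ± 3.13 FPKM (SD, n = 3 each). The change of -1.30 (SE 0.31) had an unadjusted p of 0.00126 and, in limma, an adjusted p of 0.213, and the exact permutation p was 0.1. Lbp was the single member called in the authors' deposited table, at a ratio of 0.323 and a q-value of 0.0202, from a test the sources do not describe. The authors' deposited table did not call Hp (q-value 0.101), Ltf (0.225), Saa3 (0.336) or Saa1 (0.960).

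The orosomucoid genes Orm1 and Orm2 lie within 21.3 kb of chromosome 4 with Orm3 (63344560 to 63365878), and their 775-base transcripts were 91.0% identical. Orm1 (ENSMUSG00000039196) was listed at 0.0774 FPKM in Sal_CP replicate 3, 0.218 in CP replicate 2 and 0 in the other 4 libraries. Orm2 (ENSMUSG00000061540) was listed at 0.0272 and 0.0707 FPKM in Sal_CP replicates 1 and 2 and at 0 elsewhere. These values amount to 0.989 and 2.97 fragments of Orm1 and to at most 0.905 of Orm2, all under the 3 fragments that a count of 0 allows (0.176 to 0.235 FPKM per library). No fold is given, and a difference was not detectable at this depth. The authors' deposited ratio of 326 for Orm2 compares these values with a group listed at 0.

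Of the 5 members tested, 0 were called by limma at an adjusted p below 0.05, where 0.0735% of all tested genes were called. All 5 averaged above 1 FPKM in each group. An unadjusted p below 0.05 was reached by 4 members, all lower in Sal_CP, a result that 6.77% of all tested genes gave in that direction. The groups were without overlap and lower in Sal_CP for 3 members and for 10.0% of all tested genes, and the change was below 0 for 5 members and for 60.5% of all genes. The authors' deposited table called 1 member lower, against 0.784% of the tested genes. With the median change of all genes subtracted, the members stood at -1.70 (Saa3), -1.18 (Lbp), -1.10 (Hp), -0.80 (Ltf) and -0.025 (Saa1). Relative to that median Saa1 lay above 0 after quantile normalization (0.0054) and below it under the other scalings, while the other 4 stayed below the median of all genes under each. In bulk RNA, fewer cells of a type and less RNA per cell cannot be told apart.

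**Figure D2:**
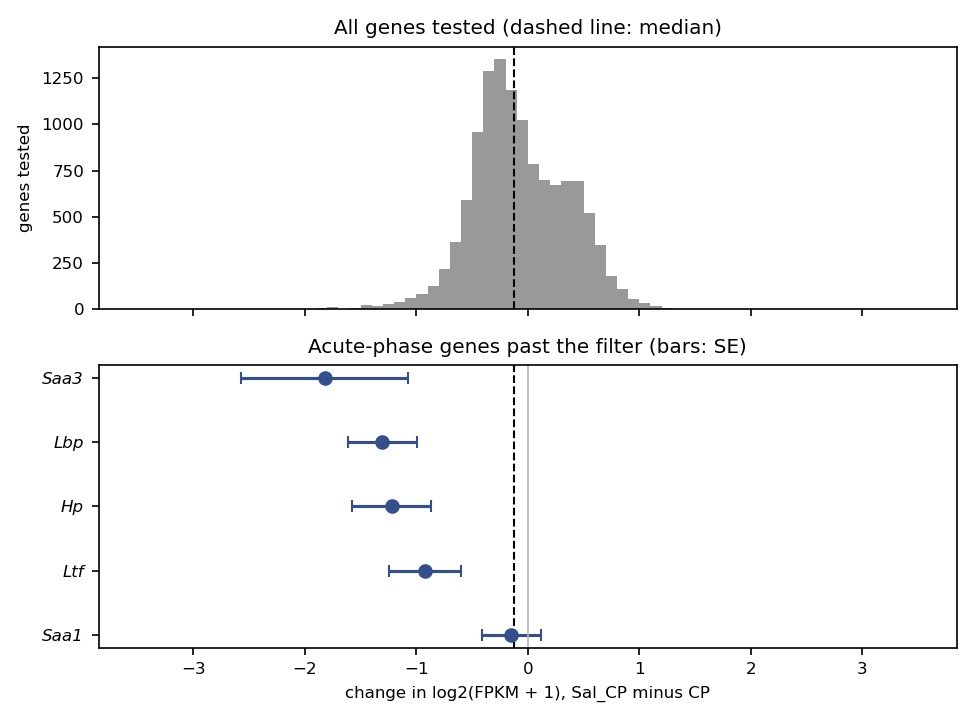
Top, number of genes tested by change in log2(FPKM + 1), Sal_CP minus CP. Bottom, the same change with its SE for the 5 members past the filter, where Saa3 (-1.82), Lbp (-1.30), Hp (-1.22) and Ltf (-0.93) lie left of the median of all genes (-0.12, dashed) and Saa1 (-0.15) lies beside it.

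Within this shared direction the members ordered the libraries differently. Saa3 and Hp were highest in CP replicate 1, intermediate in replicate 2 and lowest of the CP libraries in replicate 3, whereas Ltf was highest in CP replicate 3 and Lbp lowest in CP replicate 2. Likeness was measured as the root mean square difference of centred log2(FPKM + 1) over the 6 libraries. The nearest members were Ltf and Lbp (0.43) and Hp and Lbp (0.48), and the farthest were Saa1 and Saa3 (1.56).

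Among 3946 other genes averaging 5 FPKM or more, the nearest to Ltf was Crisp1, a cysteine-rich protein that the epididymis secretes onto sperm, at a difference of 0.072. It was followed by the fatty acid desaturase Fads2 (0.085) and the tight-junction claudin Cldn8 (0.096). Crisp1 measured 2123, 1854 and 1423 FPKM in Sal_CP against 3186, 3074 and 3521 in CP. Ltf stayed between 3.25 and 3.79% of the FPKM of Crisp1 in all 6 libraries, a narrow range that follows from choosing Crisp1 for its nearness. The genes nearest to Lbp were the carbonyl reductase Cbr2 (0.20), Tmem119 (0.22) and the complement protease C1ra (0.23). Those nearest to Hp were Txnip (0.26), the interferon-induced membrane protein Ifitm3 (0.27) and complement C4b (0.31). Saa3 had no close neighbour, the nearest being the pseudogenes Rps13-ps2 (0.69) and Rps13-ps1 (0.73) and the secreted chitinase-like protein Chil1 (0.77). For Saa1 they were Mettl26 (0.16), Tmem205 (0.20) and Tmem248 (0.21). These likenesses describe 6 libraries that differ in depth and makeup.

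**Figure D3:**
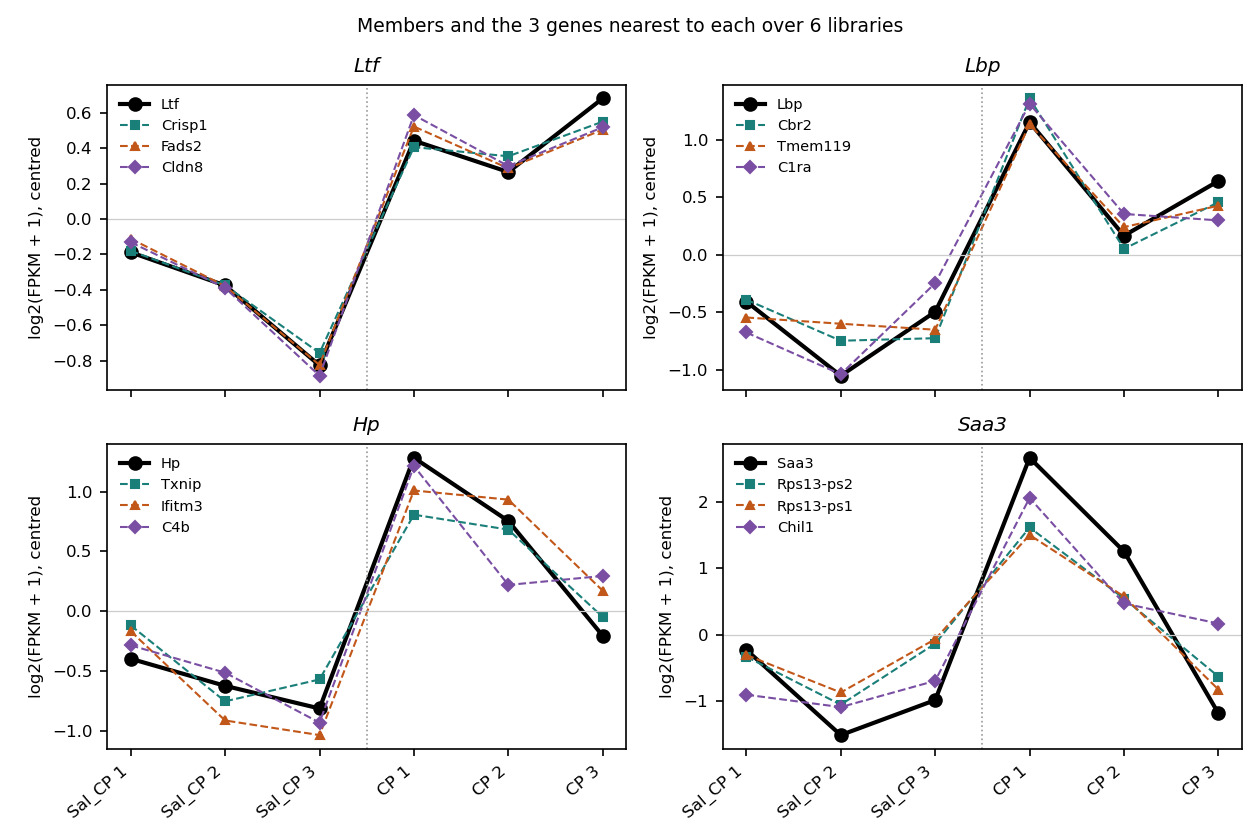
Centred log2(FPKM + 1) of Ltf, Lbp, Hp and Saa3 (black) and of the 3 nearest genes to each, across the 6 libraries, with a dotted line between the groups. Crisp1, Fads2 and Cldn8 follow Ltf closely, and Saa3 is high in CP replicates 1 and 2 and at the level of Sal_CP in CP replicate 3.

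Other acute-phase proteins of liver, a list of 33 genes, mix those that rise in the response with some that fall in it. The latter include albumin (Alb, -1.10), transferrin (Trf, -0.31) and transthyretin (Ttr, -0.24), so a shared direction does not measure the response. Among the 12 tested members, Apoa2 and Ttr averaged below 1 FPKM in Sal_CP (0.449 and 0.954) and above it in CP (2.79 and 1.20). All 12 lay below 0, with a median of -1.04 against -0.12 over all genes, and 1 was called. That gene was Lcn2, a lipocalin that withholds iron from bacteria and is an acute-phase protein itself. It measured 3.15, 3.13 and 3.69 FPKM in Sal_CP against 14.5, 31.6 and 25.5 in CP, a fall of 2.46 on the log2 scale (SE 0.31, adjusted p 0.0152 in limma). Its call was lost, at a change of -2.46 to -2.26, without Sal_CP replicate 1 (adjusted p 0.0661 in limma), without Sal_CP replicate 2 (0.0685), after quantile normalization (0.10), after median of ratios rescaling (0.210) and without the filter (0.537). Groups were without overlap for 7 of the 12, among them the serine protease inhibitor Serpina3n (-1.82, adjusted p 0.0882 in limma), complement factor B (Cfb, -1.47) and complement C3 (-1.44), none of which passed the test. Of the 33 genes, 15 stayed below 1 FPKM in every library, among them C-reactive protein (Crp, at most 0.0410 FPKM), serum amyloid P (Apcs, at most 0.0586) and the inter-alpha-trypsin inhibitor chain Itih4 (at most 0.252).

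**Figure D4:**
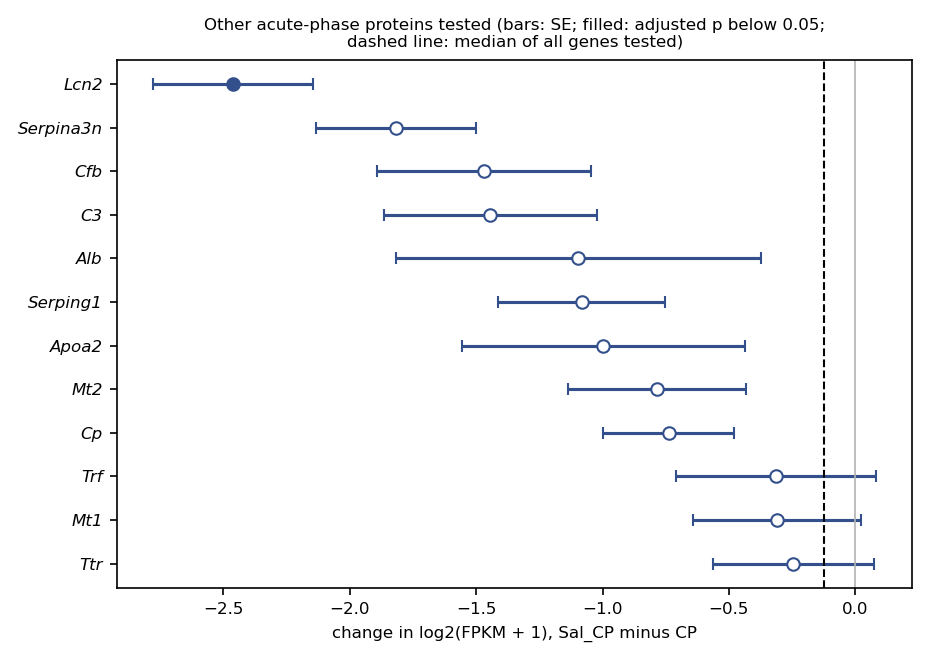
Change in log2(FPKM + 1), Sal_CP minus CP, with SE for the 12 tested genes of the list of other acute-phase proteins. All lie below 0, from Lcn2 (-2.46, filled, the single gene called) to Ttr (-0.24), and the dashed line marks the median of all genes tested (-0.12). Alb, Trf and Ttr are among those known to fall in the acute-phase response.

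Genes of the signals known to act on acute-phase genes did not pass the test. Of 12 tested cytokines and receptors upstream, 9 lay below 0 (4 of 10 after median of ratios rescaling, median -0.11 as reported) and 0 were called by limma, with an unadjusted p below 0.05 for 4. The median was -0.99 without Sal_CP replicate 1, with 11 of 11 below 0, and -0.38 without CP replicate 3. The median of all genes also fell without Sal_CP replicate 1, from -0.12 to -0.30. The list median lay above 0, from 0.018 to 0.15, when any of the other 4 libraries was left out. The leukaemia inhibitory factor receptor Lifr (-0.94, adjusted p 0.206 in limma) and the interleukin-1 receptor Il1r1 (-0.95, adjusted p 0.261 in limma) had the smallest p. Lifr averaged 0.381 FPKM in Sal_CP and 1.65 in CP, so it passed the filter only through CP. Il6 itself measured 1.26, 0.42 and 0.204 FPKM in Sal_CP against 2.12, 2.00 and 0.855 in CP, with overlap. Tnf was 46.8 FPKM in Sal_CP replicate 1 and 2.84 to 11.5 in the other libraries, and Il1a was 44.4 against 2.50 to 7.20. Of 12 tested transcription factors of acute-phase genes, all lay below 0 (10 after median of ratios rescaling, median -0.51 as reported), 0 were called by limma, and 3 had an unadjusted p below 0.05. Leaving out Sal_CP replicate 1 gave a median of -0.94, and leaving out Sal_CP replicate 3 gave -0.19 with 9 below 0. Rela, the p65 subunit of NF-κB, had a change of -1.22 (adjusted p 0.274 in limma) and the C/EBP factor Cebpd one of -1.05 (adjusted p 0.37 in limma).

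Among receptors and partners of the members, 15 of 20 genes were tested, 9 lay below 0 and 6 above (7 below after median of ratios rescaling, median -0.17 as reported), and 0 were called by limma, with an unadjusted p below 0.05 for 3. The median was -0.65 without Sal_CP replicate 1, with 14 below 0, where that of all genes was -0.30. The list median was 0.11 and 0.14 without Sal_CP replicates 2 and 3, with 7 below 0 each. It was -0.29 without CP replicate 3, -0.11 without CP replicate 2 and -0.025 without CP replicate 1. The receptor gene Cd163 measured 1.25, 0.815 and 0.678 FPKM in Sal_CP against 5.27, 2.73 and 3.76 in CP, without overlap (-1.34, adjusted p 0.115 in limma). Bpi, which encodes a lipopolysaccharide-binding relative of Lbp, lay the other way, at 2.74, 3.95 and 4.08 FPKM in Sal_CP against 2.12, 1.93 and 2.05 in CP (0.59, adjusted p 0.444 in limma). Cd14, which receives lipopolysaccharide from Lbp, was 80.6 FPKM in Sal_CP replicate 1 and 6.52 to 32.1 in the other 5 libraries, so the groups overlapped (-0.18).

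Other cell types' markers also differed between the groups, and their part in the members' differences was not tested. Epididymal epithelium markers summed to 3046, 2800 and 2133 FPKM in Sal_CP against 5098, 4764 and 5307 in CP, without overlap. Of 11 tested, 9 lay below 0, and Akr1b7 (-3.24, adjusted p 0.0152 in limma), Defb42 (-2.52, adjusted p 0.0319) and Clu (-2.53, adjusted p 0.0319) were called. All 3 calls were lost without Sal_CP replicate 1 or 2, without the filter and after median of ratios rescaling, and 1 remained after quantile normalization and without Sal_CP replicate 3 or CP replicate 3, and 2 without CP replicate 1. In this list, Lcn9 and Defb41 were at 0 in every library. Of 18 epithelial junction and keratin genes, 17 lay below 0 (median -0.92), 14 without overlap and 0 called by limma, with an unadjusted p below 0.05 for 14. Their sum of 568 to 720 FPKM in Sal_CP overlapped that of 657 to 871 in CP. The single member above 0, the claudin Cldn3, made up 403, 551 and 452 FPKM of it in Sal_CP against 486, 306 and 244 in CP (0.49, adjusted p 0.54 in limma). Without it the other 17, all below 0, summed to 115 to 243 FPKM in Sal_CP and 350.2 to 494 in CP. Cldn3 was left out after its values were seen, so the lower sum in Sal_CP follows from that choice. Cldn1 (-1.36) and Krt19 (-1.81) had the smallest p. The 7 tested fibroblast markers all lay below 0 (6 after median of ratios rescaling, median -0.91 as reported, 0 called by limma, 6 with an unadjusted p below 0.05, median -0.59 without CP replicate 1), led by Fbln1 (-1.10) and Col1a2 (-1.01), and summed to 40.4 to 70.7 FPKM in Sal_CP and 66.6 to 165 in CP.

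Neutrophil markers, a list that holds Ltf and Lcn2, summed to 63.4 to 90.3 FPKM in Sal_CP and 163 to 180 in CP. Most of each sum was Ltf itself. For Sal_CP replicates 1 to 3 it gave 72.7 of 90.3, 63.7 of 81.4 and 46.3 of 63.4. For CP replicates 1 to 3 it gave 113 of 163, 99.8 of 172 and 134 of 180. The gap between these sums therefore partly restates the change of Ltf, and a sum without Ltf was not taken. Of 8 tested, 7 lay below 0 (median -0.77), 6 were without overlap, the same number had an unadjusted p below 0.05, and Lcn2 was called. Ltf is included in each of these counts. The calprotectin subunit S100a9 measured 1.17, 1.84 and 1.02 FPKM in Sal_CP against 9.14, 12.0 and 3.07 in CP. Its partner S100a8 measured 5.31, 6.25 and 5.04 FPKM against 10.5, 7.72 and 8.78, the resistin-like Retnlg 3.12, 1.66 and 3.57 against 5.99, 11.7 and 5.96, and the protease Mmp9 0.603, 0.673 and 0.953 against 1.97, 1.71 and 1.19, each without overlap and with no call. The granule enzyme Elane was at 0 in every library, Mpo stayed at or below 0.565 FPKM, and Ly6g was at 0 in 5 of 6. Which cells carried the Ltf RNA was not tested. Macrophage markers were present throughout, with 13 of 13 tested, 9 below 0 (4 after median of ratios rescaling, median -0.020 as reported) and 0 called by limma (unadjusted p below 0.05 for 1, Cd163). This balance rests on single libraries. Without Sal_CP replicate 1, 13 lay below 0 (median -0.66, against -0.30 for all genes). Below 0 were 2 without Sal_CP replicate 3 (0.33) and 3 without CP replicate 1 (0.24). Leaving out Sal_CP replicate 2 gave 5 (0.14), and leaving out CP replicate 2 gave 6 (0.0051). The markers summed to 1125, 322 and 187 FPKM in Sal_CP against 613, 418 and 282 in CP. In Sal_CP replicate 1, highest in these markers, Saa3 was at 29.3 FPKM, against 11.4 and 16.9 in Sal_CP replicates 2 and 3. In CP replicates 1 to 3 it was at 225, 83.9 and 14.6, and a relation to these markers was not tested. Mrc1 (-0.30, adjusted p 0.735 in limma) had the next smallest p of the list after Cd163.

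Hepatocyte markers summed to 8.62 to 22.0 FPKM in Sal_CP and 15.2 to 25.6 in CP, with 4 of 12 tested, 3 below 0 (median -0.31, but 0.011 without Sal_CP replicate 1 and -0.51 without Sal_CP replicate 3) and 0 called or past an unadjusted p of 0.05 in limma. Albumin lay between 0.0252 and 7.66 FPKM (-1.10), and Apoa1 between 4.76 and 11.0 (-0.37). Adipocyte markers summed to 4.46 to 54.2 FPKM in Sal_CP and 5.45 to 12.4 in CP, with 3 of 10 tested and 0 called by limma, led by Cfd (-0.87, unadjusted p 0.0223) and Lpl (1.23). Adipoq stayed at or below 1.46 FPKM and Plin1 at or below 0.0608. Of the remaining lists, 0 members were called by limma for seminal vesicle and prostate (3 tested, unadjusted p below 0.05 for 1, Svs4 at -0.91 and Svs1 at 0.40), Sertoli (3 tested, 0 with such a p, Aard at -0.59 and Sox9 at -0.49), Leydig (2 tested, 1 with such a p, Insl3 at -1.41 and Star at -0.25), and proliferation genes (7 tested, 0 with such a p, Bub1 at 0.44 and Mki67 at -0.41). Insl3 averaged 0.307 FPKM in Sal_CP and 2.35 in CP, so it passed the filter only through CP. No endothelial marker passed the filter. Spermatid markers lay above 0 in 12 of 12 (median 0.52, but 0.31 without CP replicate 3 and 0.33 without Sal_CP replicate 3, with 1 below 0 in each case, Izumo1 at 0.61 and Acrv1 at 0.75) and meiosis markers in 5 of 6 (median 0.54, Tex101 at 0.76 and Stag3 at 0.92), with 0 called by limma and an unadjusted p below 0.05 for 2 of each.

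**Figure D5:**
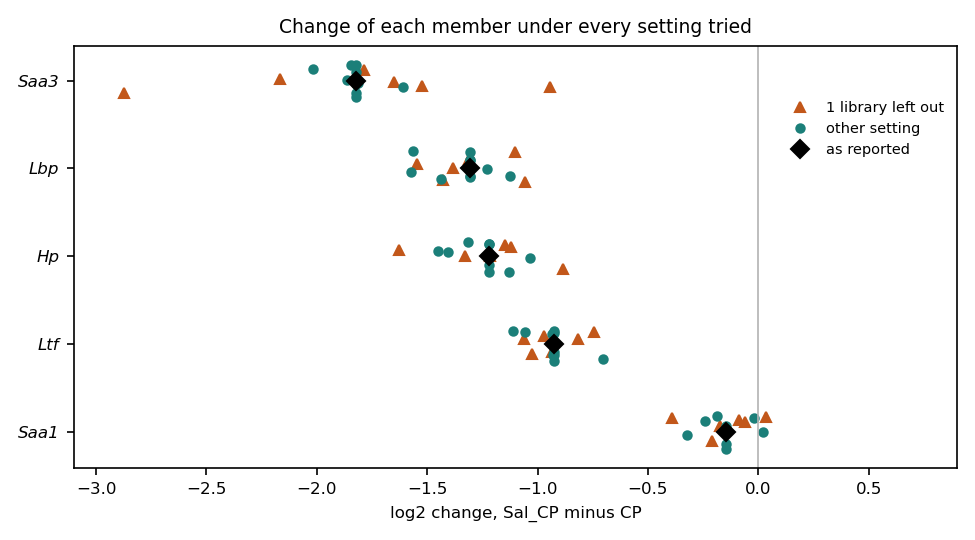
Log2 change, Sal_CP minus CP, of the 5 members past the filter under each setting tried (circles), with 1 library left out (triangles) and as reported (diamonds). Saa3 moves from -2.87 to -0.95 and Lbp from -1.57 to -1.05, and Saa1 lies on both sides of 0.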

How the data were processed

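RNA was sequenced as paired reads of 150 bases from libraries that keep strand, per the labels' protocols. Per the submitters' processing notes the genome was GRCm38. How reads were aligned and counted, and which test the authors ran, is not given in the sources. The authors deposited FPKM per gene and library, and a table of their own comparison with a ratio of mean FPKM, its log2 value, a p-value and a q-value, per the file headers.

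log2(FPKM + 1) of genes averaging 1 FPKM or more was compared with limma 3.58.1 in R 4.3.3 (trend in the prior variance, 4 residual and 7.76 prior degrees of freedom), with Benjamini-Hochberg adjustment over 12241 genes at 0.05. Each change is Sal_CP minus CP and ± is the SD. Single levels were compared by 2-sided exact permutation over 20 assignments of the libraries. The fit was tested on simulated data. Fragment numbers come from the steps of 13718 single-transcript genes of at least 600 bases, with GENCODE M21 transcript lengths, cover counting error only, and were not used for a test. For Saa3, Ltf and Lbp, which have several coding transcripts, none is given. Identities are from global alignments (Biopython 1.88), over aligned bases with gaps uncounted. Figures were drawn with matplotlib 3.10.9.

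Members and lists were chosen with earlier results of these data known. Named genes were all members, up to 4 called or else 2 leading genes by p of each list, and the 3 genes nearest to each member past the filter, leaving out predicted genes. Other named genes, the genes annotated as acute-phase response and the ratio of Ltf to Crisp1 were chosen after values were seen. So was the sum of junction and keratin genes without Cldn3. The alternatives changed the pseudocount, the filter, the scaling or limma's options, merged paralogs, the replicate number as a block, and each library left out.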

Additional observations from a re-analysis of the deposited data

How the results depend on the processing

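Saa3, Hp, Ltf and Lbp kept a change below 0 in all 17 alternatives run for each, from -2.87 to -0.95 for Saa3, -1.63 to -0.89 for Hp, -1.11 to -0.70 for Ltf and -1.57 to -1.05 for Lbp. Adjusted p in limma ranged from 0.00687 to 0.832, 0.0155 to 0.822, 0.0713 to 0.835 and 0.00403 to 0.691. Saa1 had 0.023 after median of ratios rescaling and -0.39 to 0.036 with 1 library left out. The sum of Saa1 and Saa2, -0.302 FPKM as reported, became 0.173 after that rescaling and ranged from -0.891 to 0.0886 with 1 library left out (above 0 without Sal_CP replicate 1). The sum of Orm1 and Orm2, -0.0141 FPKM, became 0.00262 and ranged from -0.0504 to 0.0584 (above 0 without Sal_CP replicate 1, at 0.00153, or CP replicate 2). The median of all genes was 0.036 after median of ratios rescaling and -0.27 after removal of mitochondrial genes, against -0.12. Without Sal_CP replicate 1 it was -0.30.

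Of all genes, limma called 9 as reported, 0 without the filter (2249 at an unadjusted p below 0.05), 0 after median of ratios rescaling (1744), 5 after quantile normalization, 14 after removal of mitochondrial genes, and 0 to 13 with 1 library left out, the 0 being without Sal_CP replicate 1 (4472) and 1 without Sal_CP replicate 2. The cause was not tested. With the replicate number as a block, on 2 residual degrees of freedom, limma called 280 genes and 3 members, Saa3 (-1.82, adjusted p 0.00687), Hp (-1.22, adjusted p 0.0155) and Lbp (-1.30, adjusted p 0.00403). Deviations of same-numbered libraries correlated at 0.196, -0.115 and -0.0644, so the numbers were not taken to pair the samples. 0 members were called under any other alternative. Depth limits any comparison of Orm1 and Orm2, under 3 fragments in every library, and of Saa2, at most 4.33.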

Other observations

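Besides the members, the deposited annotation marks 14 genes as part of the acute-phase response, of which 7 are also in the lists above. Of the 7 in no other list, 4 were tested, all below 0, with 0 called by limma and an unadjusted p below 0.05 for 1 (Reg3b). They were the antimicrobial C-type lectins Reg3b (1.71, 9.26 and 6.16 FPKM in Sal_CP against 9.16, 7.07 and 23.7 in CP) and Reg3g (0.427, 2.94 and 2.77 against 3.35, 1.98 and 6.06), the urea-cycle enzyme Ass1 (6.29, 3.24 and 2.69 against 7.16, 6.66 and 5.07) and Sigirr, an inhibitory receptor of the interleukin-1 family (1.22, 1.12 and 2.48 against 2.10, 2.13 and 1.87). The groups overlapped for each of these 4.

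The formyl peptide receptors Fpr1 and Fpr2, of which Fpr2 is a receptor for serum amyloid A, were, like Saa3, lowest in replicate 3 among the CP libraries. Fpr1 measured 4.19, 1.69 and 0.328 FPKM in CP replicates 1 to 3 and Fpr2 2.97, 3.45 and 0.119, where Saa3 measured 225, 83.9 and 14.6. Among the macrophage markers, Itgam (33.0, 17.5 and 2.85 FPKM) and Marco (16.9, 6.58 and 0.768) were likewise lowest in CP replicate 3. So were Ptprc, Cd68, Adgre1, Csf1r and Lyz2. The list was divided, as C1qa, C1qb, C1qc, Mrc1 and Cd163 were lowest in CP replicate 2 and Fcgr1 in CP replicate 1. In Sal_CP replicates 1 to 3, Itgam measured 18.6, 11.6 and 5.12 FPKM, Marco 7.44, 3.20 and 2.20, and Saa3 29.3, 11.4 and 16.9. A common source of these orders was not tested.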
